A study of Mus musculus with 72 samples.

Results

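The cytosolic ribosome is built from ribosomal RNA and a fixed set of small proteins, most of them encoded by genes named Rpl (large, 60S subunit) or Rps (small, 40S subunit). The genes described here are the protein-coding mouse genes whose symbol is Rpl or Rps plus digits and at most one letter, together with Rplp0, Rplp1, Rplp2 and Rpsa, where at least 4 of the 72 libraries held 10 or more counts. Symbols with the endings for pseudogenes and like-genes, and the Rps6k kinases, were left out. By this rule 76 of the 46078 genes in the count files were members, and all 76 also passed the low-count filter of the tests, among 18538 genes tested. The rule uses names and a minimum count and no difference between samples.

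The libraries are bulk RNA-seq of interfollicular epidermis, which is the outer skin layer away from the follicles of the hair, from female C57BL/6 mice of 8 weeks. KO mice carry Bmal1-stopFL, an allele of the clock gene Arntl (Bmal1), and no Cre by their label. RE mice carry Bmal1-stopFL and K14-Cre, a Cre recombinase driven by the keratin 14 promoter, which is active in basal keratinocytes. WT mice carry K14-Cre alone. All 3 genotypes were moved to constant darkness at 7 weeks of age and stayed in it for 156 to 176 h, and 4 mice per genotype were taken at each of time points 1 to 6, 1 mouse per library. The stated aim was to find which epidermal day-night rhythms persist with and without clocks outside the epidermis. The labels give no clock hour for a time point, so steps of 4 h were assumed.

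Ribosomal proteins are made in matched amounts because each ribosome takes 1 copy of nearly every one, the P-stalk proteins being the usual exception. In mammals most of their mRNAs begin with a C and a run of pyrimidines, the 5′ terminal oligopyrimidine (TOP) motif, through which the kinase mTORC1 sets their translation with nutrients and growth signals. Translation is known to follow the daily feeding rhythm in mouse liver. Each gene also has many processed copies in the genome, most of them pseudogenes without introns, whose sequence can be nearly the same as that of the parent mRNA.

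The motif at the annotated starts was looked for first. A start with a C followed by at least 4 C or T bases, searched at base 1 of every annotated protein-coding transcript, was found in 22 of the 76 members (28.95%) and in 819 of 14288 tested protein-coding genes with transcript sequence (5.73%). The 6 members with the longest runs are printed because they display the motif most fully; the other 54 members have no annotated start with it. Each line gives the first 30 transcribed bases, 5′ to 3′, from the GENCODE transcripts of GRCm38, with the pyrimidine run in capitals.
Rps24: CTCTTTTCCTCCTCTCCagctccggcgccg
Rpl32: CTTCCTTCTTCCTCggcgctgcctacgagg
Rps2: CTTCTTCTTCTTCgggagaacacgtgagtc
Rpl10: CTCTTTTCCTCTggcgcggtgaccaccgac
Rps25: CCTTTTTTTCCgacatcttagcgaggctgc
Rps3: CCTTTCCTTTCagcggcgcgcggctgcaag
The run was 17 bases long in Rps24, 14 in Rpl32, 13 in Rps2, 12 in Rpl10 and 11 in both Rps25 and Rps3. An annotated start can lie off the true start, so a member without the motif at base 1 is only a member whose annotation does not begin with it. The E-box CACGTG, the word bound by the clock factor BMAL1 with its partner CLOCK and its own reverse complement, stood in the window from 250 bases before to 50 bases after the RefSeq start (GRCm38.p6) of 6 of the 56 members found in that table (10.71%), against 8.09% of all 27025 genes in it. The 6 were Rpl13a, Rpl14, Rpl19, Rpl23, Rpl34 and Rps19. The Rps2 start printed above also holds CACGTG, but the RefSeq start of Rps2 lies upstream of the GENCODE start shown, and its window ends before that word.

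The members are short but spliced. The longest annotated protein-coding transcript ran from 383 bases in Rpl36 to 5179 bases in Rps15a, with a median of 925.5 bases, against a median of 3069 bases over 14305 tested protein-coding genes. None of the 76 was a single-exon gene. They had 3 to 10 exons, and 43 were 1000 bases or shorter. The 6 shortest were Rpl36 (383), Rps29 (390), Rps21 (394), Rps28 (437), Rpl38 (457) and Rps27 (458 bases), and the 6 longest were Rps15a (5179), Rps20 (3706), Rpl18 (2989), Rpl9 (2690), Rpl22 (2051) and Rpl5 (2045 bases).

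Counted levels did not follow the equal amounts in which the proteins are used. Levels are given as CPM, which are counts scaled to a fixed library total after correction by edgeR's TMM factors, and per kb of transcript where genes are compared. Among the highest mean levels per kb over the 72 libraries were those of Rps12 (1298), Rps15 (1269), Rpl4 (1103), Rps29 (1037) and Rpl41 (968 CPM per kb). Among the lowest were Rps15a (3.81), Rpl29 (4.15), Rpl21 (5.64), Rpl28 (6.39) and Rpsa (8.17 CPM per kb). Mean raw counts ran from 128 in Rpl29 to 61780 in Rpl4, and the smallest single count of any member in any library was 76. Counting error was therefore small beside the spread between animals, whose coefficient of variation had a median of 9.71% over the members.

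Members counted at low levels had more look-alike genes. A gene was counted as a look-alike if it shared at least 1 stretch of 50 bases with the member's longest transcript on either strand. The 28 members under 100 CPM per kb had a median of 15 such genes, and the 48 members at or above that level had a median of 9. Across the 76 members the level per kb had a Spearman correlation of -0.467 with the number of look-alike genes, -0.395 with transcript length and -0.095 with the share of the transcript that lay in shared stretches, as descriptions over genes that share one annotation and one set of libraries. How reads that match several places were counted is unknown here, so the counts of members with look-alike genes are uncertain as measures of mRNA. That uncertainty bears on every result on Rpsa, Rpl18, Rpl39, Rpl36a, Rpl11 and Rpl12 that follows, and also on members at higher levels. Look-alike genes numbered 28 for Rpsa, 6 for Rpl18, 9 each for Rpl39 and Rpl36a, 10 for Rpl11 and 15 for Rpl12. Among members above 100 CPM per kb they numbered 26 for Rpl3, 10 for Rpl32 and 4 for Rpl22.

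**Figure D1:**
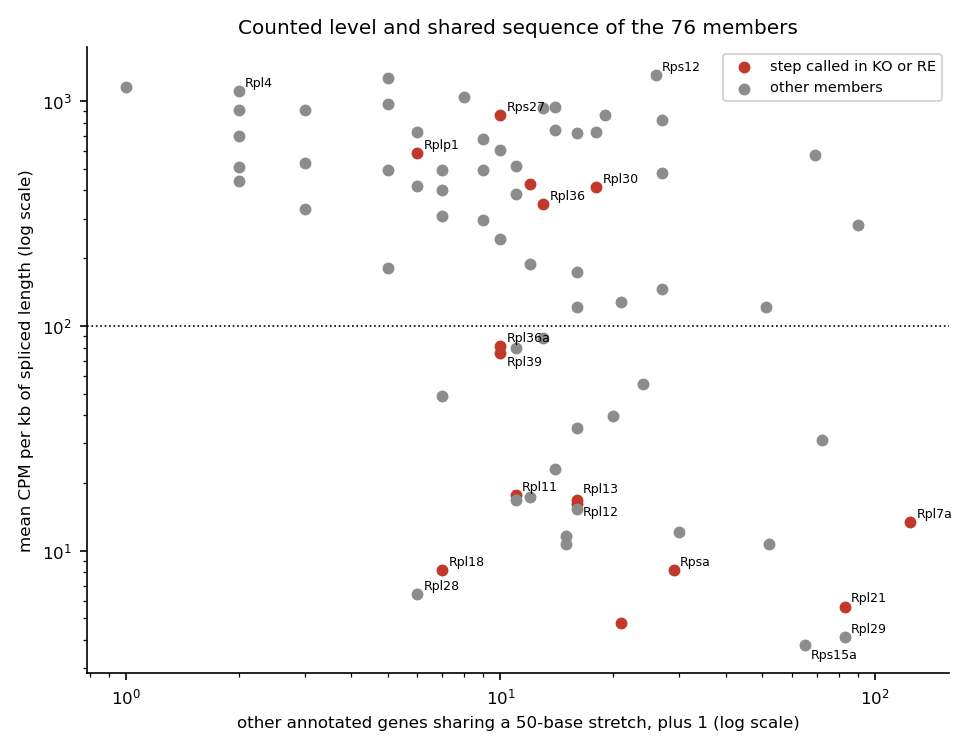
Each point is 1 of the 76 ribosomal protein genes. The horizontal axis is the number of other genes that share a 50-base stretch with it, plus 1, and the vertical axis its mean level over 72 libraries in CPM per kb, both on log scales; the dotted line marks 100 CPM per kb, below which 28 members lie, from Rps15a at 3.81 upward. Red points are members whose level differed between time points 4 to 6 and 1 to 3 in KO or RE, a comparison given further on.

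Library totals ran from 24.5 M to 95 M counts with a median of 35.4 M. Arntl ran from 26.1 to 35.1 CPM in KO libraries and from 47.1 to 76.2 CPM in RE libraries, with WT libraries spread on both sides of the KO range through the day, as its mean of 96.1 CPM at time point 1 and 22.9 CPM at time point 3 shows. The KO label therefore stands on a lower and flat Arntl count, not on its absence. Keratinocyte markers were high everywhere, with Krt5, Krt14 and Krt10 means of 5040 to 14570 CPM over the genotypes, whereas the late markers Lor and Krt2 stayed at or below 12.5 CPM on average. The fat marker Fabp4, the muscle marker Ckm, the endothelial marker Pecam1 and the fibroblast marker Lum averaged under 1 CPM. A few libraries stood apart in makeup. RE replicate 1 of time point 5 had the highest summed neutrophil and macrophage markers, at 127 CPM. The highest summed sebaceous gland markers, at 2218 CPM, were in WT replicate 4 of time point 4. The 4 libraries highest in mitochondrial counts were all of time point 6. The highest mitochondrial shares of counts were 5.47% in KO replicate 4, 5.94% in RE replicate 1, and 8.36% and 5.7% in WT replicates 4 and 2. The first 3 of these also had the highest summed erythrocyte markers, at 629, 198 and 271 CPM, and the lowest summed Langerhans cell markers, at 48, 68.5 and 58.4 CPM, in the same order. KO replicate 4 at time point 6 had the lowest Krt14 of all libraries, at 660 CPM against a median of 5430 CPM, and the highest Krt10, Ivl and Hba-a1, at 34290, 318 and 208 CPM. In these bulk libraries fewer cells of a type and less RNA per cell cannot be told apart.

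The members as a group moved between animals more than between genotypes. Together they took 2.04% to 3.59% of the counts of a library, with means of 2.49% ± 0.289 in KO, 2.51% ± 0.301 in RE and 2.5% ± 0.325 in WT libraries (SD, n = 24 each). In RE and WT the share was most uneven at time point 3. There it was 2.31%, 2.34%, 2.73% and 2.55% in KO replicates 1 to 4. It was 2.56%, 2.92%, 3.44% and 2.22% in RE replicates 1 to 4, and 2.39%, 3.33%, 3.59% and 2.49% in WT replicates 1 to 4. WT replicates 2 and 3 and RE replicate 3 were thus the 3 highest libraries of that time point, and the other WT replicates lay within the KO range. In KO the share was more uneven at time point 6, from 2.17% to 3.28%, and at time point 1, from 2.34% to 3.1%.

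Most members went up and down together across libraries. Over the 72 libraries the median correlation of log2 CPM between pairs of members was 0.719, with a range from -0.594 to 0.979, and 54 members correlated at 0.8 or more with the median of the others. The least alike were Rps15a and Rpl10 (both -0.27), Rpl13 (0.05) and Rpl28 (0.06), and Rpl18 (0.19) and Rpsa (0.34) were also among the 14 members under 0.5. The median deviation of the members in a library correlated at 0.85 with that of 745 other protein-coding genes of 1000 bases or less and at -0.762 with that of 2926 protein-coding genes over 5000 bases. It correlated at 0.095 with library total, at 0.017 with the mitochondrial share and at 0.324 with immediate early genes, whose RNA rises with handling. These are descriptions over 72 libraries that share one normalization, and the part of transcript length in the results was not tested.

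**Figure D2:**
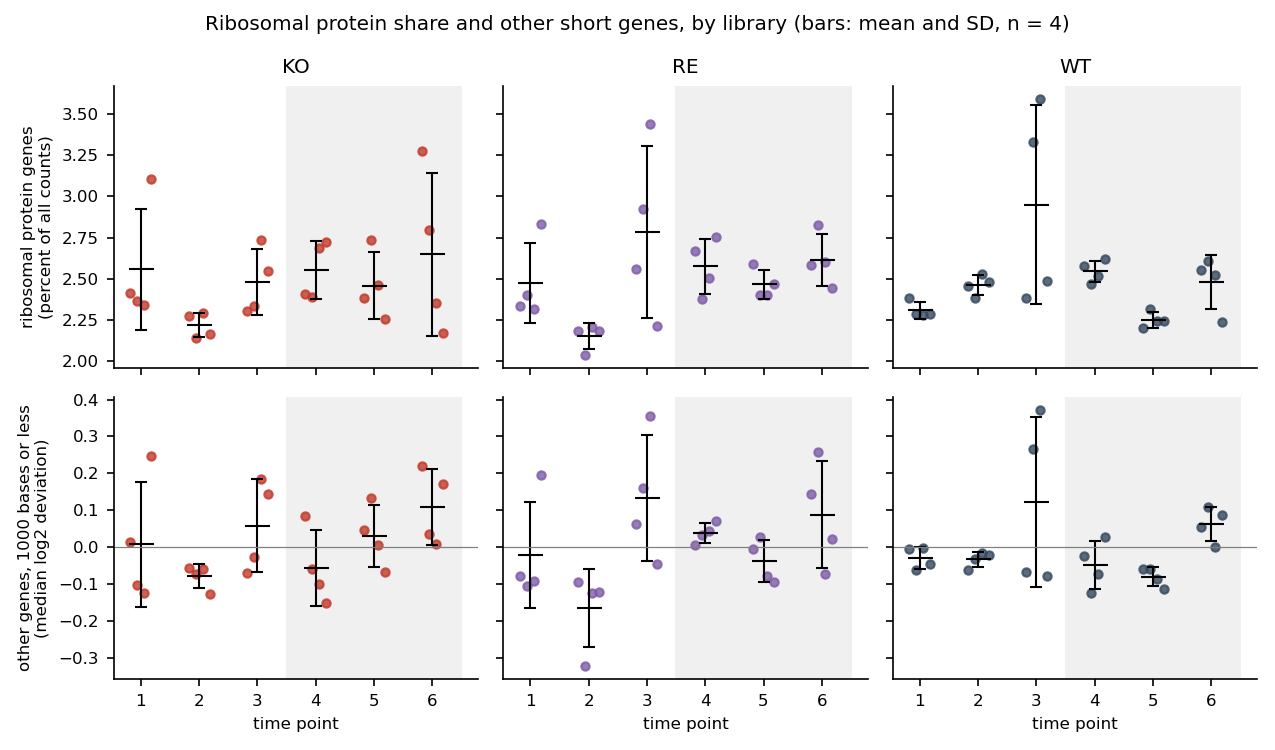
Upper panels give the share of each library's counts taken by the 76 ribosomal protein genes (percent) and lower panels the median log2 deviation of 745 other protein-coding genes of 1000 bases or less, by time point, in KO, RE and WT mice; points are single libraries, bars the mean and SD of 4, and time points 4 to 6 are shaded. The WT libraries reach 3.59% at time point 3, where the animals are far apart, and the same libraries are high in the lower panel.

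The first question was whether the transcripts vary over the day where the clock is intact. In WT epidermis 54 of the 76 members differed between time points (71.1%), while 11% of all genes tested did, by edgeR's quasi-likelihood F test with Benjamini-Hochberg adjustment over 18538 genes. The pattern was a maximum at time point 3. Rpl22, a large-subunit protein with an RNA-binding role outside the ribosome, had mean levels of 329, 362, 463, 369, 320 and 370 CPM at WT time points 1 to 6 (adjusted p = 0.00045). Rpl32, also of the large subunit and the bearer of one of the longest pyrimidine runs shown, had 303, 336, 434, 369, 297 and 356 CPM (adjusted p = 0.000468). The stalk protein gene Rplp2 had 289, 328, 425, 364, 290 and 359 CPM (adjusted p = 0.000941), and Rpl36, the shortest member, had 116, 140, 170, 155, 118 and 138 CPM (adjusted p = 0.000936).

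That maximum was carried by 2 animals. At WT time point 3 Rpl22 measured 374, 533, 558 and 386 CPM in replicates 1 to 4, and Rpl32 measured 345, 497, 515 and 381 CPM. Replicates 2 and 3 stood above every other WT library in both genes, and replicates 1 and 4 did not. Without replicates 2 and 3 of that time point, a choice made after seeing the data, 1 member was called in place of 54, and leaving out replicate 2 alone gave 24 and replicate 3 alone 18. The same libraries were among the 6 highest in other short protein-coding genes, and without those 6 libraries 21 members were called.

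RE epidermis showed the same test at 34 of 76 members against 6% of all genes, and KO epidermis at 10 against 6.42%. In RE the count leaned on single animals as well, with 13 members without replicate 2 of time point 2 and 56 without replicate 4 of time point 3; it was 22 without replicate 3 of time point 2 or replicate 4 of time point 5, 17 without replicate 2 of time point 3 and 15 without replicate 3 of time point 3. In KO it was 6 without replicate 2 of time point 5 and 16 without replicate 3 of time point 6. Whether the number of varying members differs between genotypes was not tested as such. Without the 4 libraries of time point 6 highest in mitochondrial counts, a choice made after seeing the data, the counts were 11 in KO, 35 in RE and 55 in WT. The genes with the smallest adjusted p were of another kind than in WT: Rpl39, Rpl18, Rpsa and Rpl11 in KO (1.09e-06, 0.000229, 0.00232 and 0.0114), and Rpl39, Rpl18, Rpl36a and Rpl11 in RE (2.62e-05, 4.29e-05, 0.000336 and 0.00128).

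Genes of translation outside the ribosome itself gave the following counts for a difference between WT time points. Of 22 other TOP mRNAs 14 were called, among them Eif3f, an initiation factor subunit, and Tpt1, the translationally controlled tumour protein. Of 82 ribosome biogenesis genes 33 were called, led by Rrp12 and the RNA acetyltransferase gene Nat10, of 8 elongation factor genes 4, of 37 initiation factor genes 10, and of 28 genes of mTORC1 and TOP control 7, with the mTORC1 inhibitor gene Ddit4 first. Genes of mitochondrial ribosomal proteins, which build a separate ribosome, were called in 6 of 77 cases, and other protein-coding genes of 1000 bases or less in 67 of 745. Of 91 ribosomal protein pseudogenes 51 were called in WT, 33 in RE and 11 in KO. Markers of other cell types were called beside them: 3 of 5 erythrocyte and 2 of 4 muscle genes in WT, and in KO all 5 erythrocyte genes and 1 gene each of the hair follicle, Langerhans cell, and neutrophil and macrophage lists. Summed erythrocyte levels at time point 6 ran from 80.7 to 629 CPM in KO and from 26.1 to 271 CPM in WT, and summed muscle levels from 2.34 to 4.54 CPM in KO and from 2.85 to 6.7 CPM in WT. Their part in the time-point results was not tested. Without WT replicates 2 and 3 of time point 3, where 4.88% of all genes tested were called, these counts were 1 of 22 other TOP mRNAs, 26 of 82 ribosome biogenesis genes, 1 of 8 elongation factor genes, 1 of 37 initiation factor genes, 4 of 28 genes of mTORC1 and TOP control, 0 of 77 mitochondrial ribosomal protein genes, 3 of 91 ribosomal protein pseudogenes and 17 of 745 other short genes. The ribosome biogenesis count was thus 26 without those libraries, against 33 with them, and the ribosomal protein count 1, against 54.

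In KO and RE epidermis a smaller set of members stood at one level at time points 1 to 3 and at another at time points 4 to 6. This contrast, the mean of time points 4 to 6 minus the mean of time points 1 to 3, was chosen after seeing the values. In KO 15 of 76 members passed, 13 higher and 2 lower, where 8.85% of all genes tested passed, 4.74% higher and 4.11% lower. In RE 12 passed, 10 higher and 2 lower, with 4.05% of all genes passing, 2.21% higher and 1.83% lower. In WT none of the 76 passed while 1.07% of all genes did; 2 members had an unadjusted p under 0.05, and DESeq2 called none. The medians of all members were 0.05 in KO, 0.04 in RE and -0.05 in WT on the log2 scale.

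**Figure D3:**
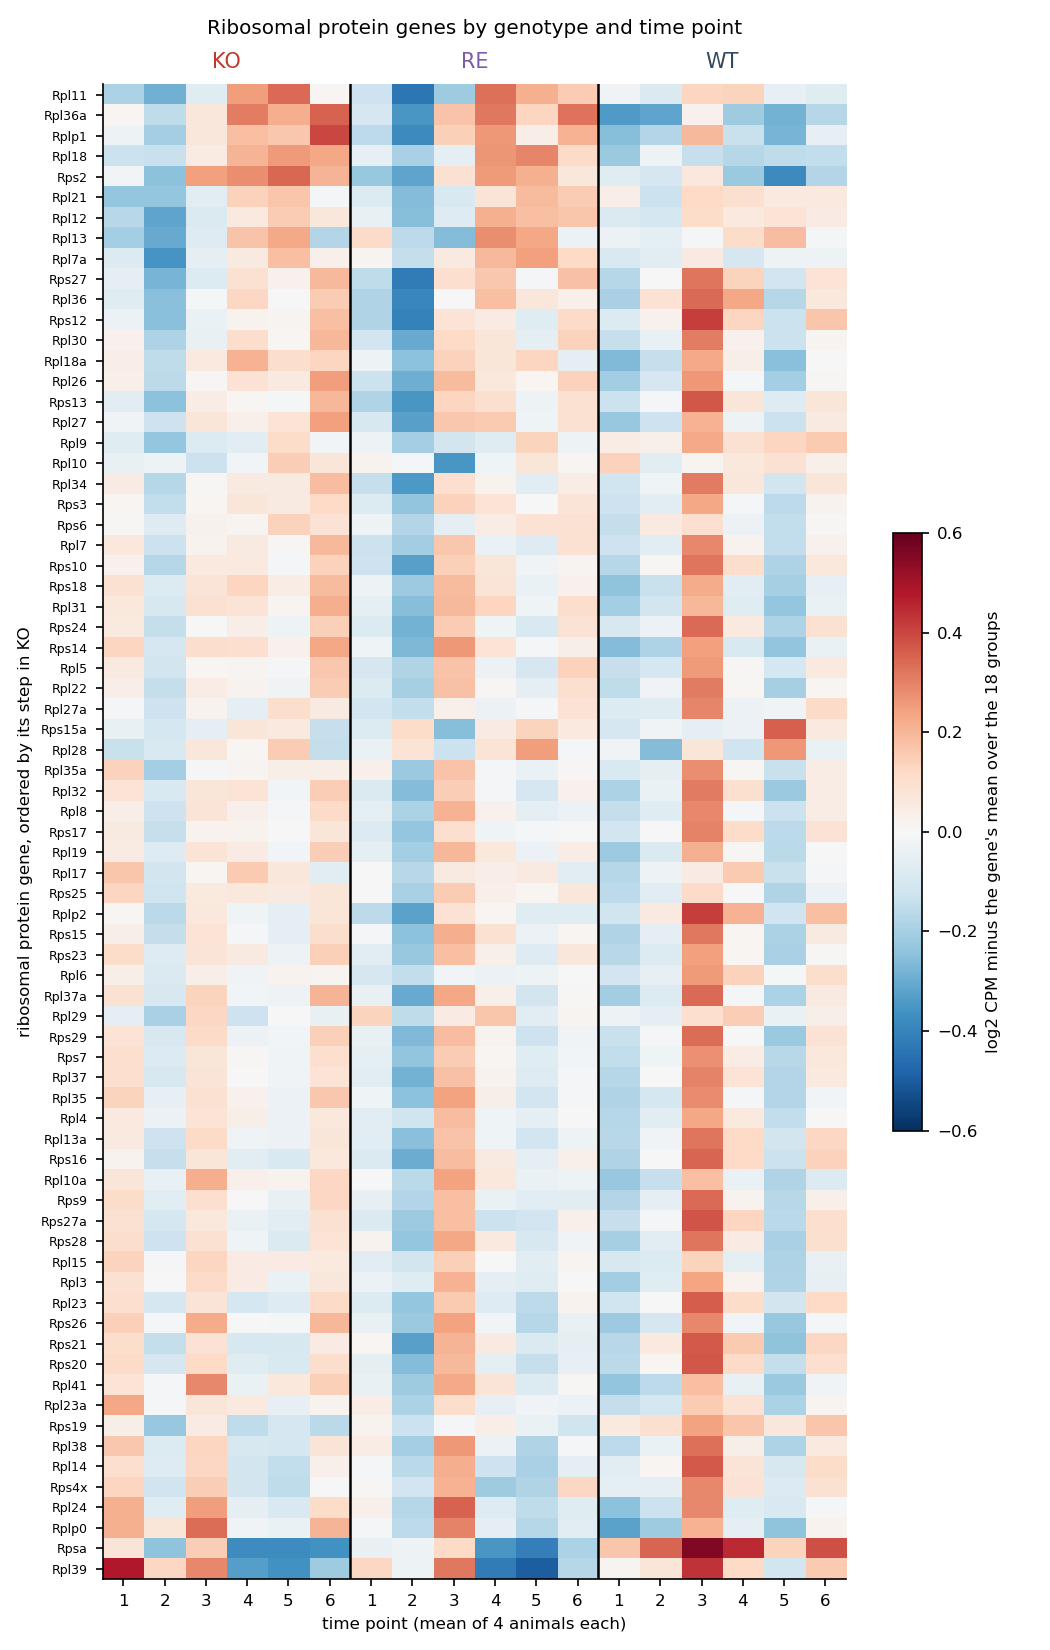
Mean level of 73 of the 76 ribosomal protein genes (down the page, ordered by the difference between time points 4 to 6 and 1 to 3 in KO) in the 18 groups of genotype and time point (across, KO, RE, then WT), as log2 difference from the gene's mean over all groups. Most genes share the WT maximum at time point 3; the genes at either end show the change between time points 3 and 4 in KO and RE.

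Rpl39, on the X chromosome (chrX:37082520-37085402, GRCm38) with 3 exons, encodes a very small protein at the exit tunnel for the growing peptide, and of the 76 members it fell most in KO. Its lowest, median and highest levels at time points 4 to 6 were 31.4, 36.4 and 43.7 CPM in KO, against 47.4, 54.0 and 83.8 CPM at time points 1 to 3. In RE they were 28.3, 35.5 and 46.3 CPM at time points 4 to 6, against 38.8, 48.6 and 71.2 CPM at 1 to 3, and in WT 38.7, 45.6 and 60.6 CPM, against 43.5, 47.3 and 85.0 CPM. The 12 late and the 12 early KO libraries did not overlap, whereas the RE ranges overlapped in part and the WT ranges widely. The difference was -0.61 ± 0.07 in KO (log2 ± SE, adjusted p = 3.36e-08) and -0.50 ± 0.07 in RE (adjusted p = 4.3e-06) by edgeR, and it was more negative than in WT by 0.48 ± 0.10 in KO (adjusted p = 0.00483).

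Rpsa (chr9:120127689-120132369), which encodes a small-subunit protein also known as the laminin receptor, fell as well. At time points 4 to 6 its lowest, median and highest levels were 10.3, 11.6 and 14.6 CPM in KO, against 11.9, 15.5 and 19.0 CPM at 1 to 3, and in RE 10.7, 12.0 and 16.3 CPM, against 12.3, 15.4 and 23.6 CPM. WT libraries had 15.5, 19.5 and 25.0 CPM late, against 16.3, 19.1 and 27.3 CPM early. The late KO libraries all lay below the lowest WT library of any time point, and the early and late ranges overlapped in each genotype. The difference was -0.37 ± 0.07 in KO (adjusted p = 0.000507) and -0.34 ± 0.07 in RE (adjusted p = 0.00137) by edgeR. Its difference from WT was -0.33 in KO (adjusted p = 0.0512) and -0.30 in RE (adjusted p = 0.124) and did not pass.

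Rpl18 (chr7:45715457-45720836), a large-subunit gene with 7 exons, rose. At time points 4 to 6 its lowest, median and highest levels were 24.5, 28.4 and 34.2 CPM in KO, against 19.8, 23.2 and 28.7 CPM at 1 to 3. RE libraries had 24.8, 28.9 and 31.2 CPM late, against 18.6, 23.1 and 25.6 CPM early, and WT libraries 19.8, 22.2 and 24.0 CPM late, against 19.5, 22.2 and 24.6 CPM early. Every KO and RE library of time points 4 to 6 stood above every WT library of the same time points. The difference was 0.30 ± 0.05 in KO (adjusted p = 6.73e-06) and 0.32 ± 0.04 in RE (adjusted p = 2.54e-06), and it exceeded that in WT by 0.33 ± 0.06 in KO (adjusted p = 0.00168) and by 0.35 ± 0.06 in RE (adjusted p = 0.00141), by edgeR.

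Rpl36a (chrX:134585654-134588062), a large-subunit gene of the X chromosome, had lowest, median and highest levels of 40.2, 46.8 and 60.7 CPM late in KO, against 32.7, 36.5 and 48.0 CPM early. In RE they were 38.9, 45.6 and 56.4 CPM late, against 25.1, 33.8 and 53.9 CPM early, and in WT 29.1, 32.6 and 38.2 CPM late, against 28.7, 31.2 and 47.6 CPM early. Here too the KO and RE libraries of time points 4 to 6 all lay above the WT libraries of those times. Rpl36a rose by 0.32 ± 0.07 in KO (log2, adjusted p = 0.00134) and by 0.34 ± 0.07 in RE (adjusted p = 0.00074), more than in WT by 0.33 (adjusted p = 0.0364) and 0.36 (adjusted p = 0.038), by edgeR.

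**Figure D4:**
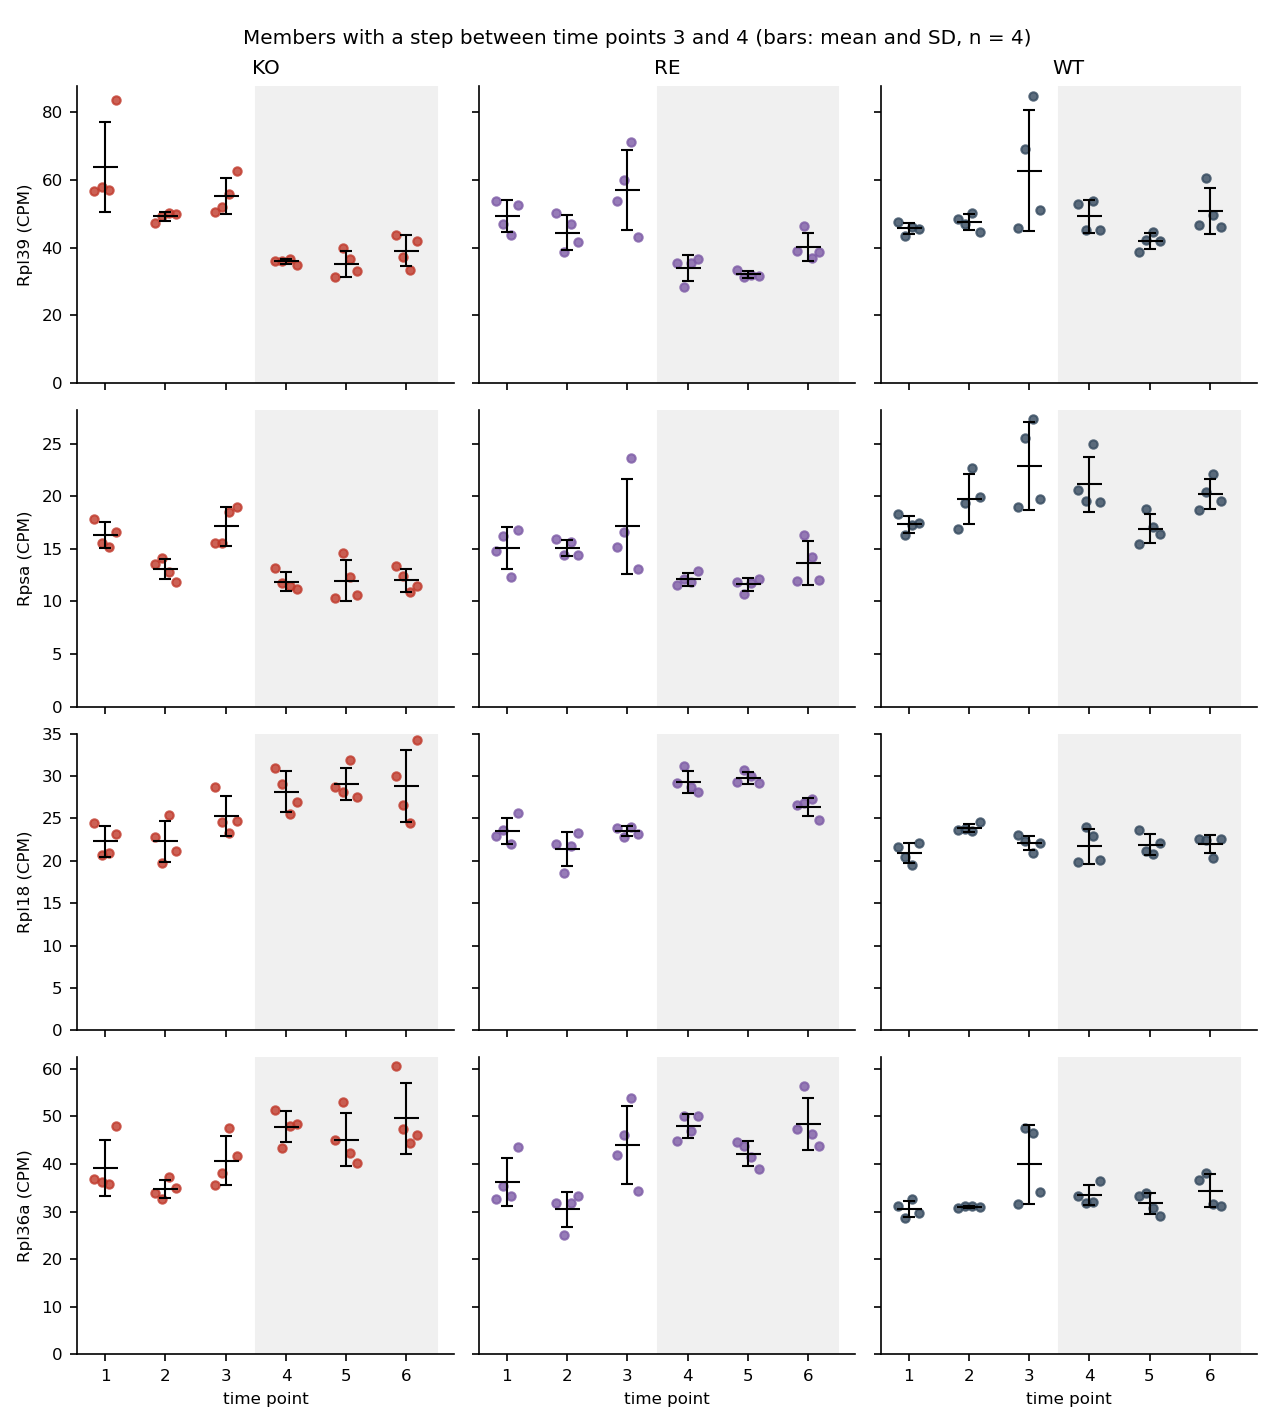
Levels of ribosomal protein genes that changed between time points 1 to 3 and 4 to 6, in CPM (vertical axes), by time point, in KO, RE and WT mice; points are single libraries and bars give the mean and SD of 4, with time points 4 to 6 shaded. Rpl39 drops to a KO median of 36.4 CPM late and Rpl18 climbs to 28.4 CPM, while the WT medians are 45.6 and 22.2 CPM.

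Rpl11 (chr4:136028265-136053428) encodes the large-subunit protein that, with Rpl5 and the 5S ribosomal RNA, binds the p53 regulator Mdm2. It had lowest, median and highest levels of 10.5, 17.6 and 22.4 CPM late in KO, against 9.56, 13.1 and 15.1 CPM early. In RE it had 12.8, 17.2 and 21.4 CPM late, against 8.46, 12.2 and 15.6 CPM early, and in WT 12.6, 14.6 and 17.4 CPM late, against 12.6, 14.4 and 20.4 CPM early. The ranges overlapped in every genotype. Rpl11 rose by 0.39 ± 0.08 in KO (log2, adjusted p = 0.00117) and by 0.49 ± 0.08 in RE (adjusted p = 6e-05), and the rise exceeded the WT difference by 0.40 (adjusted p = 0.0419) and 0.50 (adjusted p = 0.015), by edgeR.

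Among the proteins of the stalk, which recruits elongation factors, Rplp1 (chr9:61913284-61914542) rose by 0.31 ± 0.07 in KO (log2, adjusted p = 0.00371) and by 0.29 ± 0.07 in RE (adjusted p = 0.00975), and Rpl12, which lies at the stalk base, by 0.29 (adjusted p = 0.00786) and 0.31 (adjusted p = 0.00701), by edgeR. Rplp1 had lowest, median and highest levels of 282, 337 and 474 CPM late in KO, against 236, 270 and 348 CPM early, and 264, 327 and 389 CPM late in RE, against 185, 242 and 425 CPM early. WT libraries had 225, 259 and 293 CPM late, against 228, 257 and 418 CPM early. The excess over WT passed for Rplp1 at 0.39 in KO (adjusted p = 0.0197) and 0.38 in RE (adjusted p = 0.0439). The other stalk genes, Rplp0 and Rplp2, did not pass this contrast in any genotype, and Rplp0 averaged 413 CPM late, against 460 CPM early, in KO.

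A small-subunit gene rose as well. Rps27, whose protein has a zinc finger, rose by 0.25 ± 0.07 in KO (adjusted p = 0.0153) and 0.26 ± 0.07 in RE (adjusted p = 0.0212), by edgeR. Rpl13, Rpl21 and Rpl36 of the large subunit also rose in both KO and RE, by 0.21 to 0.29 on the log2 scale, and Rpl7a and Rpl30 in KO. Of the 15 members called in KO 10 were under 100 CPM per kb, as were 9 of the 12 called in RE, whereas 28 of all 76 members were under that level.

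**Figure D5:**
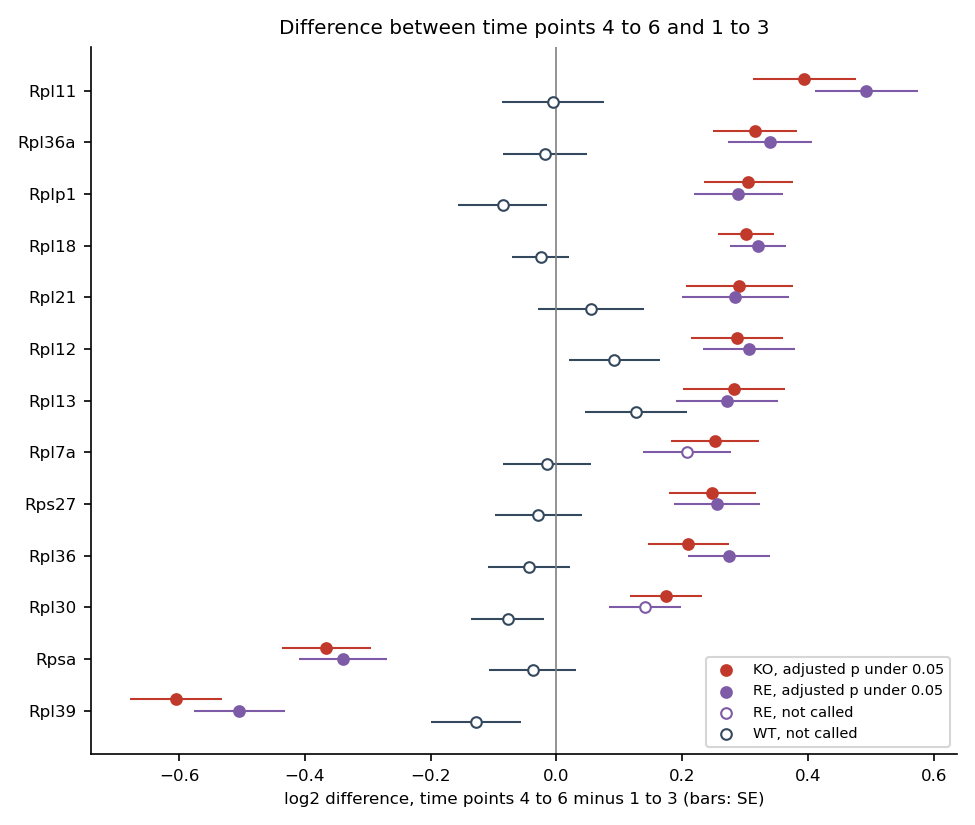
Difference in level, time points 4 to 6 minus time points 1 to 3 (log2, horizontal axis), for 13 of the 15 members called in KO (down the page), in KO, RE and WT; bars are standard errors and filled points passed edgeR's test at an adjusted p under 0.05. Rpl39 and Rpsa lie left of 0 and the other 11 right of it in KO, with Rpl39 at -0.61 and Rpl11 at 0.39.

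Leaving out 1 library at a time gave 10 to 20 called members in KO and 9 to 17 in RE, and without KO replicate 4 of time point 6, the library with few basal keratin counts, 17 were called in KO. Without the 4 libraries of time point 6 highest in mitochondrial counts, 17 were called in KO and 12 in RE. Without the 6 libraries highest in other short genes 24 members passed in KO and 21 in RE. Of the differences from WT, 5 members passed in KO (2.92% of all genes) and 5 in RE (1.13% of all genes), the same 5 genes Rpl18, Rpl39, Rplp1, Rpl36a and Rpl11; both comparisons use the same WT libraries. The calls of Rpl18, Rpl39 and Rplp1 in KO and of Rpl18 and Rpl11 in RE held on leaving out any 1 library. Leaving out 1 library ended the call of Rpl36a in 13 cases and of Rpl11 in 19 in KO, and of Rpl36a in 12, Rplp1 in 24 and Rpl39 in 41 in RE, where Rpl39 was borderline at -0.38 (edgeR adjusted p = 0.0477). The KO count was 8 without KO replicate 4 of time point 1 or WT replicate 1 of time point 5, and 3 without KO replicate 2 of time point 1 or 2 or WT replicate 3 of time point 5. The RE count ran from 2 to 6 over single libraries and was 2 with the replicate number as a block and 2 without the 4 libraries highest in mitochondrial counts; the KO count was then 7. Scaling by library totals alone gave 11 members with a different KO contrast, 10 higher and 1 lower.

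Differences between time points inside time points 1 to 3 and 4 to 6 were tested as well. Within time points 4 to 6 no member differed in any genotype, with 1.58%, 0.178% and 1.12% of all genes called in KO, RE and WT; within time points 1 to 3 the counts were 0 members in KO (0% of all genes), 33 in RE (1.61%) and 57 in WT (7.84%). At an unadjusted p under 0.05 the members numbered 1 in KO, 3 in RE and 18 in WT within time points 4 to 6, and 8 in KO within time points 1 to 3, in the same edgeR fit; DESeq2 was not run on these contrasts.

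A look-alike gene of Rps27, chosen after its values were seen, changed in the same direction. Rps27rt (chr9:114982366-114982739) is a single-exon copy of Rps27 (chr3:90212522-90213651, 5 exons), and the script-aligned coding sequences of both, 255 bases on the minus strand of each chromosome, differed at 0 bases. Their shared sequence is printed because it shows what a read from the coding part of either gene looks like.
Rps27: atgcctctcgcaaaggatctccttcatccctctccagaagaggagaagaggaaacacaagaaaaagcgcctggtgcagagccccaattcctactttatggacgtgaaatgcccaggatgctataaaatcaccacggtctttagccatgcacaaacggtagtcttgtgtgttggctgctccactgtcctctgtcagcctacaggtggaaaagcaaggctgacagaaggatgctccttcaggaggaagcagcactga
Rps27rt: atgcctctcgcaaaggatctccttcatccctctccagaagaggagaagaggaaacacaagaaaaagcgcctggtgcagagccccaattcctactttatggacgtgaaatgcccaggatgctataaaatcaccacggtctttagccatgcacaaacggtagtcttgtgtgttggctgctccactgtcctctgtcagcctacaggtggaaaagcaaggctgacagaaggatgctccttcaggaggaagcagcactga
Both lines are 5′ to 3′ and in lower case throughout, since capitals would mark differing bases. Rps27rt had lowest, median and highest levels of 19.1, 24.7 and 29.8 CPM late in KO, against 11.2, 12.5 and 20.8 CPM early, and in RE 19.9, 23.4 and 25.5 CPM late, against 11, 13.0 and 15.5 CPM early. In WT they were 11.2, 13.8 and 16.2 CPM late, against 11.4, 13.3 and 19.8 CPM early. The early and late RE libraries did not overlap. Its difference was 0.89 ± 0.07 in KO (log2, adjusted p = 6.63e-15) and 0.81 ± 0.07 in RE (adjusted p = 1.56e-13), larger than in WT by 0.93 and 0.86 (adjusted p = 6.62e-10 and 1.09e-08) by edgeR. From which of the 2 genes a read within the shared coding sequence came cannot be told apart. The longest Rps27 transcript has 458 bases, and 63.08% of its 50-base stretches are shared with other genes. The counts do not show which part of a gene a read came from.

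Other lists gave these counts for the same contrast. Of 91 ribosomal protein pseudogenes 17 passed in KO, 10 higher and 7 lower, and 17 in RE, 8 higher and 9 lower; Rpl31-ps14, chosen after its values were seen, stood 0.67 higher late in KO and 0.72 higher in RE on the log2 scale. Of 745 other protein-coding genes of 1000 bases or less 43 passed in KO, 37 higher and 6 lower, and 29 in RE, all higher, with medians of 0.05 in both. Of 82 ribosome biogenesis genes 6 rose in KO and 2 in RE, and of 77 genes of mitochondrial ribosomal proteins 6 passed in KO and 2 in RE. Of 22 other TOP mRNAs 5 passed in KO, 1 higher and 4 lower, and 3 in RE, all lower. Of 37 initiation factor genes 6 passed in KO, 1 higher and 5 lower, and 5 in RE, 1 higher and 4 lower. Of 8 elongation factor genes 1 was lower in KO and 2 in RE. Some genes are in several of these lists. Of all protein-coding genes tested 8.71% passed in KO and 3.89% in RE. The elongation factor gene Eef1a1, itself a TOP mRNA, fell by 0.18 in KO (adjusted p = 0.0386) and by 0.23 in RE (adjusted p = 0.011).

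A cosine of 24 h, fitted in each genotype on the assumed 4 h steps, called 9 members in KO (5.87% of all genes), 8 in RE (2.7%) and 5 in WT (11%). Without time point 2 the counts were 4 in KO, 4 in RE and 8 in WT, and without time point 3 they were 19, 17 and 0; without time point 6 they were 13 in RE and 53 in WT. Without the 6 libraries highest in other short genes they were 18 in KO, 20 in RE and 0 in WT, and without the 4 highest in mitochondrial counts 10, 9 and 31. Rpl18 had a peak-to-trough swing of 0.44 ± 0.07 (log2) in KO with its peak at 15.27 h after time point 1 (adjusted p = 5.5e-05) and 0.49 in RE with its peak at 15.33 h (adjusted p = 3.87e-06). Rpl11 had swings of 0.63 and 0.71 with peaks at 14.9 h in KO and 15.73 h in RE (adjusted p = 0.000856 and 0.000171). Rpl39 peaked early, at 3.07 h in KO with a swing of 0.81 ± 0.14 and at 3.98 h in RE with a swing of 0.68 (adjusted p = 0.000313 and 0.00582), all by edgeR. Rpl18, Rpl11 and Rpl39 were also called in KO and RE between time points 4 to 6 and 1 to 3. The cosine fit does not tell a smooth rhythm from such a step, and which shape describes these genes better was not tested.

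The 5 WT rhythms peaked from about time point 3 to shortly before time point 4 on the assumed steps. Rpl36 had a swing of 0.43 ± 0.10 (log2) with its peak at 8.92 h (edgeR adjusted p = 0.00889), and Rpl3, Rpl6, Rpl22 and Rpl32 had swings of 0.24 to 0.34 with peaks between 7.91 and 10.96 h. None of the 5 was called without WT replicates 2 and 3 of time point 3, and leaving out single libraries gave 1 to 22 members, with 1 without replicate 2 or replicate 3 of time point 3, 10 without replicate 1 of that time point, 12 and 22 without replicates 1 and 2 of time point 6, 8 without its replicate 4, 11 without RE replicate 3 of time point 3, and 3 without replicate 2 or 3 of time point 1, replicate 3 of time point 4 or replicate 3 or 4 of time point 5. The rhythm differed from WT in 7 members in KO (6.2% of all genes) and in 3 in RE (2.17%), Rpl18 first in both (edgeR adjusted p = 0.000889 and 0.000436). Leaving out 1 library gave 2 to 12 members for KO and 2 to 4 for RE, and leaving out the 4 libraries highest in mitochondrial counts gave 24 and 4. It differed between RE and KO in none, as for all 18538 genes (0%); 0 members but 364 genes had an unadjusted p under 0.05 there, and DESeq2 called 0 members.

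Time points 5 and 2, 12 h apart on the assumed steps, were compared directly, a choice made with earlier results of these data known. In KO 7 members differed (1.53% of all genes), 6 higher at time point 5 (1.19%) and Rpl39 lower (0.345%), at -0.48. In RE 5 differed (0.987% of all genes), 4 higher (0.739%) and Rpl39 lower (0.248%), at -0.47, and in WT 1 differed (3.38%). The WT gene was Rpl28, with 8.28 to 8.62 CPM at time point 5, against 5.20 to 6.62 CPM at time point 2, a difference of 0.51 ± 0.15 (log2, edgeR adjusted p = 0.0362) that was lost on leaving out any of 7 WT libraries. Rpl18 rose by 0.38 in KO (adjusted p = 0.00633) and by 0.48 in RE (adjusted p = 0.000283), by edgeR. It also exceeded the WT difference by 0.50 (adjusted p = 0.0133) and 0.60 (adjusted p = 0.0026), where 1.22% and 1.6% of all genes passed, and Rpl36 exceeded it by 0.71 in RE (adjusted p = 0.013). The KO count fell to 1 without replicate 2 of time point 2 or of time point 5, 4 without replicate 3 of either, and 3 without replicate 4 of time point 2, and the RE count to 2 without any of 6 RE libraries.

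Mean levels over the 6 time points were compared between genotypes. KO mice carry no Cre by their label and WT mice carry K14-Cre. In KO against WT the Arntl allele and Cre therefore cannot be told apart. RE mice carry K14-Cre as well, so in RE against KO the higher Arntl level and Cre cannot be told apart either. Both limits hold for every comparison of these genotypes. In KO 18 of 76 members differed from WT, 14 higher and 4 lower, where 29.8% of all genes did, 15.5% higher and 14.3% lower. In RE 8 differed, 2 higher and 6 lower, where 4.87% of all genes did, 2.52% higher and 2.35% lower. The share of members called lay below the background in KO and above it in RE, and the medians over the 76 members were 0.01 and -0.01 (log2). The split by direction depended on scaling: by library totals alone 9 members were higher and 9 lower in KO, and 4 higher and 3 lower in RE. Without time point 3 there were 33 in KO, 29 higher and 4 lower, and without time point 4 there were 4 in RE.

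Rpsa differed most in level. Its lowest, median and highest levels over 24 libraries were 10.3, 13.3 and 19.0 CPM in KO, 10.7, 13.6 and 23.6 CPM in RE and 15.5, 19.4 and 27.3 CPM in WT. Most KO and RE libraries lay below the WT minimum, and the ranges overlapped. The level was lower than in WT by 0.53 ± 0.05 in KO (adjusted p = 6.12e-13) and by 0.49 ± 0.05 in RE (adjusted p = 3.17e-10) on the log2 scale, by edgeR. Rps19, a small-subunit gene mutated in human Diamond-Blackfan anaemia, was lower too, at -0.23 ± 0.05 in KO (adjusted p = 0.000143) and -0.17 in RE (adjusted p = 0.0243), with medians of 18.3 CPM in KO, 19.2 CPM in RE and 20.9 CPM in WT and overlapping ranges.

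Rpl36a was higher by 0.35 ± 0.05 in KO (log2, adjusted p = 3.11e-08) and by 0.30 in RE (adjusted p = 1.76e-05), and Rpl18 by 0.23 ± 0.03 (adjusted p = 8.5e-08) and 0.21 (adjusted p = 1.12e-05), by edgeR. Among the stalk genes Rplp0 was higher in KO by 0.23 ± 0.05 (adjusted p = 0.000216), with lowest, median and highest levels of 360, 423 and 587 CPM in KO, 312, 374 and 612 CPM in RE and 301, 352 and 579 CPM in WT. Rplp1 was higher in KO by 0.21 ± 0.05 (adjusted p = 0.000732), with medians of 308 CPM in KO, 306 CPM in RE and 257 CPM in WT. Rplp2 was lower in RE by 0.19 ± 0.05 (adjusted p = 0.007), with medians of 305 CPM in KO, 298 CPM in RE and 323 CPM in WT. The ranges of the genotypes overlapped for each of the 3 stalk genes. Rpl15 was higher in KO by 0.12 ± 0.03 (adjusted p = 0.0027), and Rpl39, Rpl6 and Rpl9 lower in RE by 0.23, 0.11 and 0.16 (adjusted p = 0.00295, 0.025 and 0.0428).

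More members were called at time points 4 to 6 than at 1 to 3, as were more of all genes tested. The share of members called lay below that of all genes in KO and above it in RE at both sets of time points. At time points 4 to 6 KO differed from WT in 15 members, 12 higher and 3 lower (24.2% of all genes, 12% higher and 12.2% lower), and at time points 1 to 3 in 8, 2 higher and 6 lower (16.7% of all genes, 9.63% higher and 7.07% lower). For RE against WT the counts were 8 at time points 4 to 6 (5.32% of all genes) and 4 at time points 1 to 3 (1.1% of all genes). Whether a gene's difference from WT changed between these sets of time points is the same test as the difference from WT reported above, which passed for 5 members in KO and 5 in RE.

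RE and KO differed in 2 members, Rplp0 at -0.15 ± 0.05 (adjusted p = 0.016) and Rps26 at -0.13 ± 0.05 (adjusted p = 0.0388) by edgeR, both lower in RE, where 23.9% of all genes differed, 12.1% higher and 11.7% lower; 7 members had an unadjusted p under 0.05. Rps26 had medians of 470 CPM in RE and 514 CPM in KO with ranges of 358 to 734 and 453 to 717 CPM. Both calls were fragile: the count ran from 1 to 5 on leaving out 1 library, it was 1 without KO replicate 4 of time point 1, and 0 without time point 1, 2 or 6, whereas it was 22 without time point 3. By library totals alone 3 members were higher and none lower. Within time points 1 to 3 and within time points 4 to 6 no member differed between RE and KO (7.12% and 12.3% of all genes), and 3 and 2 members had an unadjusted p under 0.05 in the same edgeR fit. Markers that differed between KO and WT gave values beside these results: 4 of 5 erythrocyte genes were higher in KO, with summed levels of 37.4 to 629 CPM in KO, 28.3 to 198 CPM in RE and 20.9 to 271 CPM in WT libraries. Of 6 hair follicle genes 3 were lower in KO, with sums of 19.4 to 104 CPM in KO, 20.2 to 98.5 CPM in RE and 26 to 96.5 CPM in WT libraries, and the lowest Krt71 value was 0. Of 6 melanocyte genes 4 were lower in KO, with sums of 5.85 to 22.3 CPM in KO, 6.47 to 26 CPM in RE and 6.68 to 31 CPM in WT libraries. Of 13 keratinocyte genes 8 differed in KO, 6 higher and 2 lower, with sums of 47040 to 69000 CPM in KO, 44620 to 60490 CPM in RE and 45900 to 61820 CPM in WT libraries. Of 4 genes of dendritic epidermal T cells 2 differed, Thy1 higher and Cd3e lower in KO, with sums of 26.1 to 234 CPM in KO, 65.9 to 193 CPM in RE and 47.3 to 141 CPM in WT libraries. One gene was called in KO in each of the muscle list (of 4, higher), the neutrophil and macrophage list (of 5, lower) and the sebaceous gland list (of 5, lower). Their part in the ribosomal protein results was not tested.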

How the data were processed

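The authors deposited 72 tables of raw read counts, with Ensembl identifiers and 1 library in each. Per the submitters' processing notes, reads were handled with Trimmomatic, TopHat2 2.1.1 and featureCounts on GRCm38 (mm10); which annotation they used, how strand was set and how reads with several matches were counted is not stated there. Symbols, types, lengths and coordinates came from GENCODE's annotation of GRCm38, which matched 45229 of 46078 identifiers.

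Groups come from the labels, and each library is 1 mouse. Counts were filtered with filterByExpr (minimum count 10, 18 groups), which kept 18538 genes, scaled by TMM (factors 0.866 to 1.11) and tested with edgeR 4.0.16 (R 4.3.3) by the robust quasi-likelihood F test. One model had a mean per group (54 residual degrees of freedom), and the other a cosine of 24 h per genotype on assumed steps of 4 h (63). P-values were adjusted by Benjamini-Hochberg over 18538 genes and called under 0.05. Log2 CPM used a prior count of 2. No library of the 108 replicate pairs repeated another within counting error. The procedure was tested on simulated data with known changes.

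Alternatives were DESeq2 1.42.0, other scalings, no low-count filter, leaving out each library or time point, and a replicate block. In the fits that leave out 1 library the filter and the dispersion trend of all 72 were kept. Leaving out WT replicates 2 and 3 of time point 3, leaving out the 6 libraries highest in other short genes, leaving out the 4 highest in mitochondrial counts, and comparing time points 4 to 6 with 1 to 3 were added after seeing the data. The members and gene lists were chosen with earlier results of these data known. Named genes were, by rule, the 8 called members with the smallest adjusted p in each comparison (3 where none was called), the 6 shortest, 6 longest, 6 highest and 6 lowest per kb, Rplp0, Rplp1, Rplp2 and Rpsa, the 4 least alike, and up to 3 genes of each other list. The rule was applied to the added contrast too, and Rps27rt, Rpl18 and Rpsa in the likeness description, the remaining genes of the added contrast and the E-box genes were named after their values were seen. A few genes that the rule names are not reported here.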

Additional observations from a re-analysis of the deposited data

Results flagged for a closer look

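In 72 groups of 4 libraries (the ribosomal protein share of counts and the levels of 3 genes in each of 18 groups), 7 had 1 library further from the others than Dixon's critical value for 4 samples allows; chance alone marks about 1 in 20 groups. For the share these were KO replicate 4 of time point 1 at 3.1%, RE replicate 4 of time point 1 at 2.83%, RE replicate 2 of time point 2 at 2.04% and WT replicate 1 of time point 1 at 2.38%. Rpl39 measured 83.8 CPM in KO replicate 4 of time point 1 and 28.3 CPM in RE replicate 2 of time point 4, and Rpl18 measured 20.4 CPM in WT replicate 3 of time point 6.

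The difference between time points 4 to 6 and 1 to 3 was itself different from that in WT in 5 genes. In KO the excess over WT (log2) was 0.33 in Rpl18, -0.48 in Rpl39, 0.39 in Rplp1, 0.33 in Rpl36a and 0.4 in Rpl11. In RE it was 0.35 in Rpl18, 0.5 in Rpl11, 0.36 in Rpl36a, 0.38 in Rplp1 and -0.38 in Rpl39. For time point 5 minus time point 2 the excess was 0.5 in KO and 0.6 in RE for Rpl18, and 0.71 in RE for Rpl36. All comparisons with WT share the same 24 WT libraries.

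The 24 h rhythm differed from WT in KO for Rpl18, Rpl36, Rpl39, Rpl11, Rplp1, Rpl30 and Rps27, with edgeR adjusted p of 0.000889, 0.0242, 0.0325, 0.0397, 0.0405, 0.0426 and 0.0427 in that order. In RE it differed for Rpl18, Rpl11 and Rpl36, with edgeR adjusted p of 0.000436, 0.0178 and 0.0473.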

How the results depend on the processing

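Counts of called members were recomputed with 1 choice changed at a time. Values of named genes were followed for the called members with the smallest p in each comparison, 84 values in all. Where such a value had a sign, it kept it with DESeq2, the other scalings, no filter and the replicate block. It also kept it without the most influential library. Signs were not checked in the other settings. With relative log expression size factors or TMM factors computed without the members, all 22 counts stayed within 1.5 times those reported. The values that moved further follow, for the comparisons in the order of the text.

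For differences between time points, WT counts were 24 by library totals, 1 without WT replicates 2 and 3 of time point 3, 21 without the 6 libraries highest in other short genes, 0 within time points 4 to 6, and 18 to 59 on leaving out 1 library. RE counts were 19 by library totals, 17 with no filter on low counts, 0 within time points 4 to 6, and 13 to 56 on leaving out 1 library. KO counts were 16 with DESeq2, 16 without the 2 WT libraries, 22 without the 6, 0 within time points 1 to 3, 0 within time points 4 to 6, and 6 to 16 on leaving out 1 library.

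For time points 4 to 6 minus 1 to 3, the counts were 24 in KO and 21 in RE without the 6 libraries, and on leaving out 1 library 10 to 20 in KO and 9 to 17 in RE. Members with a KO difference unlike WT numbered 8 with DESeq2, 11 by library totals, 3 with no filter, 3 without the 2 WT libraries, and 3 to 8 on leaving out 1 library. In RE they numbered 2 with no filter, 2 with the replicate block, 2 without the 4 libraries highest in mitochondrial counts, and 2 to 6 on leaving out 1 library.

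For the 24 h rhythm, KO counts were 18 without the 6 libraries, 4 without time point 2, 19 without time point 3, and 6 to 11 on leaving out 1 library. RE counts were 20 without the 6, 4 without time point 2, 17 without time point 3, 4 without time point 4, 13 without time point 6, and 6 to 12 on leaving out 1 library. WT counts were 12 with DESeq2, 2 with no filter, 0 without the 2 WT libraries, 0 without the 6, 0 without time point 1, 8 without time point 2, 0 without time point 3, 3 without time point 4, 3 without time point 5, 53 without time point 6, 31 without the 4 highest in mitochondrial counts, and 1 to 22 on leaving out 1 library. Rhythms in KO unlike WT numbered 13 with DESeq2, 15 by library totals, 2 with no filter, 2 without the 2 WT libraries, 2 without the 6, 24 without the 4, and 2 to 12 on leaving out 1 library; in RE they numbered 6 without the 6, and 2 to 4 on leaving out 1 library.

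For time point 5 minus 2, KO counts were 14 without the 6 libraries and 1 to 7 on leaving out 1 library. RE counts were 8 with DESeq2, 9 without the 2 WT libraries, 21 without the 6, and 2 to 7 on leaving out 1 library. WT counts were 0 with no filter, 2 without the 6, and 0 to 1 on leaving out 1 library. Differences unlike WT in KO numbered 2 with DESeq2, 2 by library totals, 10 without the 6, and 1 to 2 on leaving out 1 library; in RE they numbered 4 with DESeq2, 4 without the 2 WT libraries and 24 without the 6.

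For levels, KO minus WT counts were 28 without the 2 WT libraries, 29 without the 6, 33 without time point 3, and 8 within time points 1 to 3. RE minus WT counts were 17 without the 6, 4 without time point 4, and 4 within time points 1 to 3. RE minus KO counts were 1 with no filter, 4 without the 2 WT libraries, 6 without the 6, 0 without time point 1, 0 without time point 2, 22 without time point 3, 1 without time point 5, 0 without time point 6, 0 within time points 1 to 3, 0 within time points 4 to 6, and 1 to 5 on leaving out 1 library.

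The replicate block gave, in the order KO, RE and WT, 8, 26 and 52 members differing between time points and 14, 11 and 0 differing between time points 4 to 6 and 1 to 3. Replicate numbers do not pair the animals: over 612 pairs with the same number the median correlation of deviations from group means was -0.015, against 0.008 over 1836 pairs with different numbers. Of 84 values of named genes, 6 were no longer called with the block, 7 by library totals, 15 with no filter and 27 on leaving out the most influential library, and 0 with DESeq2. Depth did not limit the members, whose smallest count was 76. How reads with several matches were treated is unknown and was not tested, and the cause of each change in this section was not tested.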
